A study of Homo sapiens with 8 samples.

Results

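The genes described here are 59 genes of the mitotic spindle, the kinetochore and cytokinesis, from CDK1 and PLK1 at the entry into mitosis to ANLN at the cleavage furrow. They are defined by a list of gene symbols, and all 59 were found among the 60676 genes of the deposited count table. RNA was measured in MOLM14, an established human line of acute myeloid leukaemia, engrafted in mice (the model is labelled CLDX). MOLM14 carries a rearranged MLL gene and an FLT3 receptor gene with an internal tandem duplication. Mice received gilteritinib, an FLT3 kinase inhibitor, or vehicle for 1 week, and a ketogenic or a standard diet for 3 weeks. Each pairing of drug or vehicle with a diet gave 1 library labelled bone marrow and 1 labelled liver, 8 in all. Marrow RNA was taken from sorted human CD45+ cells, while the liver libraries are labelled as whole tissue that holds mouse cells as well as the human line. All groups share the same engrafted line and its genotype. The labels do not say how many animals stand behind a library. The p-values therefore measure only spread between these libraries, mostly as pooled over all genes tested, and not spread between animals.

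Mitosis begins when CDK1 joins cyclin B and is switched on by CDC25 phosphatases, after which condensed chromosomes are attached to spindle microtubules through their kinetochores. The spindle assembly checkpoint holds back the ubiquitin ligase called the anaphase-promoting complex until every chromosome is attached. CDC20 then activates that ligase, securin and cyclin B are destroyed, sister chromatids separate, and the central spindle guides the cut between the daughter cells. Most of these genes are transcribed late in the cell cycle, through promoters that carry a CHR element (cell cycle genes homology region) and CCAAT boxes, which are read by the MuvB core with B-MYB and FOXM1 and by NF-Y. In leukaemia with an FLT3 internal tandem duplication, the mutant receptor signals for growth without its ligand.

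Because nearly all of these genes moved together with the drug in marrow, the promoters of 6 of them are shown. CKAP2L, printed first, fell most of the 6, and PTTG1, printed last, fell least. Between them the order is not strictly by size of fall. The windows run from 250 bases before to 50 bases after the annotated start, 5′ to 3′ on the gene's strand, from RefSeq on GRCh38.p14. Capitals mark the CHR (TTTGAA, or TTCAAA on the other strand) and the CCAAT box (CCAAT, or ATTGG on the other strand). They lie at chr2:112764560-112764859 (minus strand), chr1:200620702-200621001 (minus strand), chr16:23678639-23678938 (plus strand), chr15:59104896-59105195 (plus strand), chr1:43358731-43359030 (plus strand) and chr5:160421605-160421904 (plus strand).
CKAP2L: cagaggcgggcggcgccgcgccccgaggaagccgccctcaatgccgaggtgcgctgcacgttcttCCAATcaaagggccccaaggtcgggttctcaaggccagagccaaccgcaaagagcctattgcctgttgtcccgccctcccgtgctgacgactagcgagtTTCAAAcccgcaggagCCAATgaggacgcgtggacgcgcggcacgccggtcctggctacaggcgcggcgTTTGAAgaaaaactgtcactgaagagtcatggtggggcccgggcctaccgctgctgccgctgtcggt
KIF14: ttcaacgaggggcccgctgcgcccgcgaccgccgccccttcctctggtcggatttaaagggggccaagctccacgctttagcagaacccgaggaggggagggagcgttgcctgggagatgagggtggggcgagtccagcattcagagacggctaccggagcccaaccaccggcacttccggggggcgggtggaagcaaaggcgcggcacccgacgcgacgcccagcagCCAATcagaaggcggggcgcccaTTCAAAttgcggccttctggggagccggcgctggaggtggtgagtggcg
PLK1: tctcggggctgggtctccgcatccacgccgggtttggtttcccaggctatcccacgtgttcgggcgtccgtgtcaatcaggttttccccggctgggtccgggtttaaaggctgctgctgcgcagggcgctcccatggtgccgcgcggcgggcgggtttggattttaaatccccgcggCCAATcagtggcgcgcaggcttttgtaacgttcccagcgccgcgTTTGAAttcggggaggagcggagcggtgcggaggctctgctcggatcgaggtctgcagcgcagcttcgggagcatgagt
CCNB2: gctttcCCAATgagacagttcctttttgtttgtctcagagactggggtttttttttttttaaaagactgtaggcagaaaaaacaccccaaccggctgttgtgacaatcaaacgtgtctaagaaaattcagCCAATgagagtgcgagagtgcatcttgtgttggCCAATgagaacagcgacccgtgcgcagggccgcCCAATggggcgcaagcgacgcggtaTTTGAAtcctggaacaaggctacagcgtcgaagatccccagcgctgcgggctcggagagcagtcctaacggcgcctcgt
CDC20: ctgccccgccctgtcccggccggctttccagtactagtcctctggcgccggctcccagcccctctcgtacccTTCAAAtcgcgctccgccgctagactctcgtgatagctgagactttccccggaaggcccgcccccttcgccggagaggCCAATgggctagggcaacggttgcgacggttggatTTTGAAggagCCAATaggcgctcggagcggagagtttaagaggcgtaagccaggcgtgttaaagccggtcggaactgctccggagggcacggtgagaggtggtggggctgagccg
PTTG1: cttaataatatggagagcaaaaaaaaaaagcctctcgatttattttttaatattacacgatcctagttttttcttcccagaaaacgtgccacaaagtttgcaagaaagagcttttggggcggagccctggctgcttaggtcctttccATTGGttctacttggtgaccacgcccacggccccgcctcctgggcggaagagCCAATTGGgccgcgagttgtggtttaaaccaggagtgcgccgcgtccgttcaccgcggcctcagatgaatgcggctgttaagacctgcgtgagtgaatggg

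In CKAP2L, PLK1 and CCNB2 a CHR begins 17, 29 and 29 bases before the start, with the nearest CCAAT box beginning 70, 73 and 54 bases before it. CDC20 holds a CHR at 65 and another at 178 bases before its start, and CCNB2 holds 4 CCAAT boxes. The PTTG1 window, for the gene that fell least but 1 in marrow, holds CCAAT boxes and no CHR letters, and 2 of its boxes overlap on opposite strands. RefSeq windows were matched for 49 of the 59 members (59 windows), and not for PBK, UBE2C, ESCO2, TPX2, AURKA, BIRC5, CDCA2, BUB3, TTK and RACGAP1. A CHR was found on either strand in 37 of the 59 windows (62.7%), against 15.2% of all 35116 windows. A CCAAT box was found in 42 (71.2%) against 34.6%, and both motifs in 29 (49.2%) against 5.9%. E2F letters (TTGGCGC or else TTCCCGC or else TTGCCGC or else TTCGCGC, both strands) were found in 19 (32.2%) against 13.0%, where TTGGCGC can share letters with ATTGG. The log2 fold change with gilteritinib in marrow had a median of -1.21 over the 32 tested members with a CHR and of -1.22 over the 15 without. Motif matches describe these windows and say nothing of binding.

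Library totals ran from 15557885 to 33611830 counts in marrow and from 13605936 to 27657147 in the libraries labelled liver, where both gilteritinib libraries were deeper than both vehicle libraries. The tissue label coincides with a code that the labels call a batch, so tissue and batch cannot be told apart. Of 16 hepatocyte markers 8, among them ALB, TTR and APOB, had no count in any library, and the summed level of the list was 1.88 to 2.97 CPM (counts scaled to a common library size) in every library. Erythroid markers summed to at most 0.226 CPM. Levels below are CPM scaled with TMM factors over all 8 libraries, given for the standard and then the ketogenic diet.

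The 59 genes together took 0.444% and 0.417% of marrow counts with vehicle and 0.17% and 0.2% with gilteritinib. In the libraries labelled liver they took 0.415% and 0.441% with vehicle and 0.343% and 0.367% with gilteritinib. Per kilobase of annotated exon the highest mean levels were those of UBE2C (94.0 CPM per kb), CDC20 (69.8), CCNB1 (46.1) and BUB3 (45.2), and the lowest of a tested member was that of the kinetochore kinesin CENPE (0.995). The microtubule-bundling proteins NUSAP1 and PRC1 were almost without counts: NUSAP1 had 0 to 8 and PRC1 0 to 5 counts in any library, and neither was tested. Both overlap another annotated gene on their own strand, as do BUB1B and CENPA, which had counts in every library. The handling of reads shared between overlapping genes is not given, and its part in these low counts was not tested. The counts of NUSAP1 and PRC1 thus cannot be read as their level in the cells. A count of 0 allows up to 3 counts in a library. On GRCh38 (GENCODE 29) the members followed most closely below lie as whole gene bodies, with PLK1 (ENSG00000166851) at chr16:23677656-23690367, CCNB1 (ENSG00000134057) at chr5:69167010-69178245, ASPM (ENSG00000066279) at chr1:197084128-197146694, and TOP2A (ENSG00000131747) at chr17:40388516-40417950, MKI67 (ENSG00000148773) at chr10:128096659-128126385 and PTTG1 (ENSG00000164611) at chr5:160421822-160428744. The other 57 had at least 36 counts in every library, and all of them passed the filter of 10 counts in at least 2 libraries under both labels. Of the 59, 34 overlap another annotated gene and 27 overlap one on the opposite strand, PBK and ESCO2 each other, and the strand setting of the counting is not given in the sources used here. PTTG1 has near-identical copies, of which PTTG3P held 182 and PTTG2 13 counts over all 8 libraries. The handling of reads shared between copies is not given, so the count of PTTG1 is uncertain to an unknown extent.

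**Figure D1:**
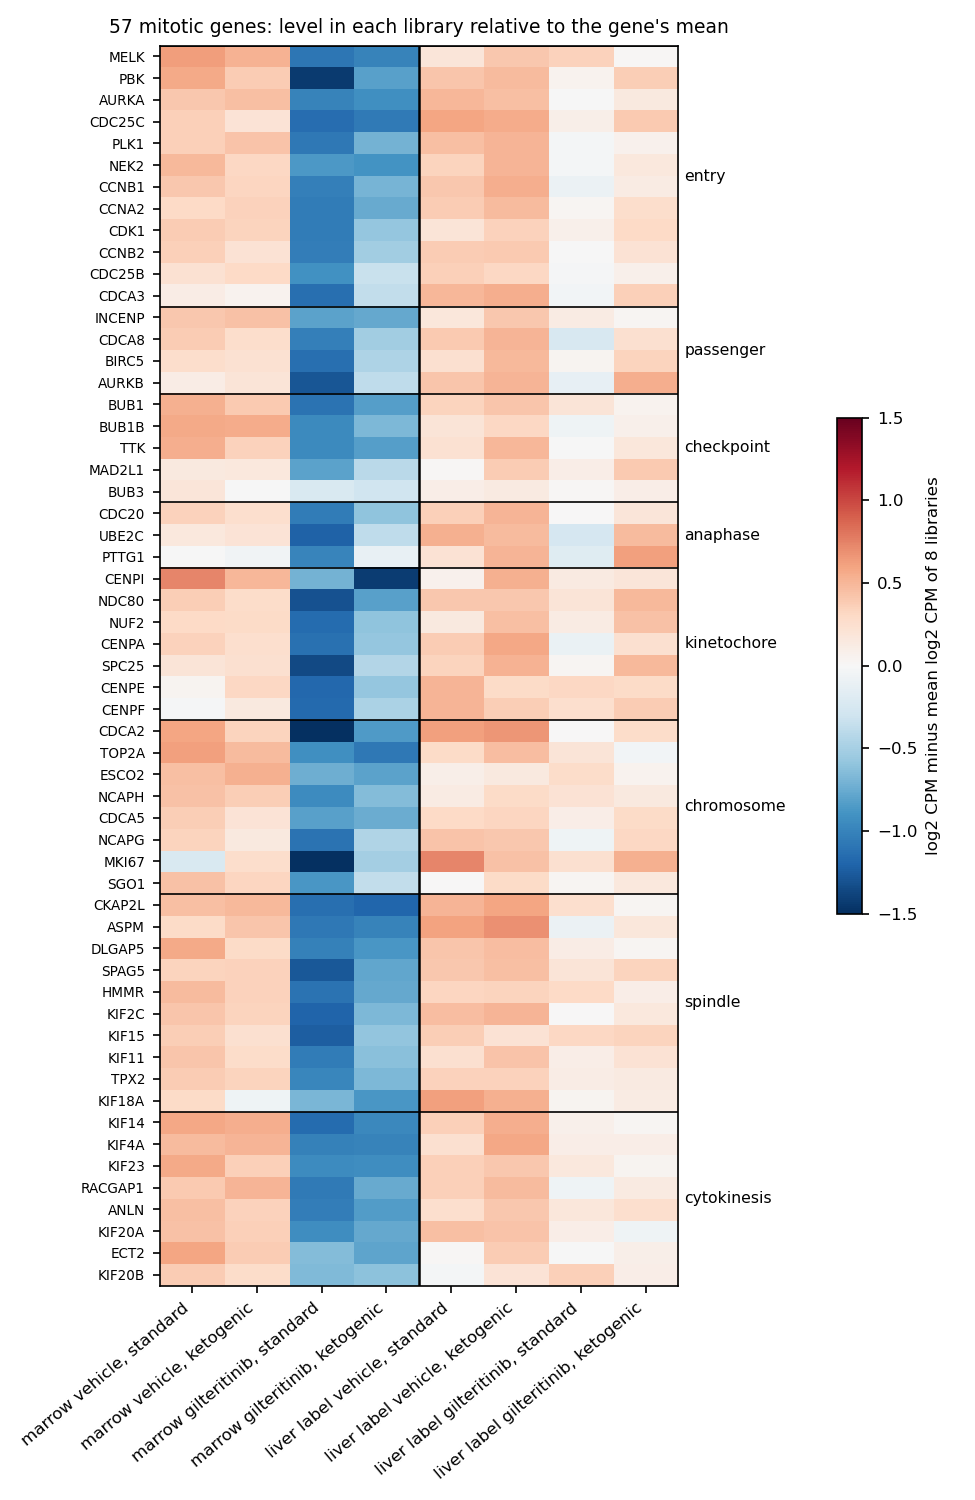
Level of each tested member (rows, by role) in each of the 8 libraries (columns), as log2 CPM minus the gene's mean log2 CPM over the 8 libraries. The 2 gilteritinib marrow columns are blue for all 57 genes, while the 4 columns labelled liver lie near or above the mean.

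Gilteritinib against vehicle in marrow asked what FLT3 inhibition did to mitotic transcripts in the sorted leukaemia cells. All 57 tested members fell, with edgeR's quasi-likelihood test at a Benjamini-Hochberg adjusted p under 0.05, at a median log2 fold change of -1.21 (2.32-fold lower) and a range from -1.68 for CDCA2 to -0.35 for BUB3. Among all 14029 genes tested, 9.82% were called lower and the median log2 fold change was -0.01. The members were chosen with earlier results of these data known, so this contrast is not independent of their choice. Both gilteritinib libraries lay below both vehicle libraries in 57 of 57 members, against 29.4% of all genes. Fewer cells in mitosis and less RNA per cell cannot be told apart in bulk RNA.

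Among the 12 kinases, cyclins and phosphatases of mitotic entry the median was -1.25. PLK1, the kinase that matures centrosomes and drives mitotic entry, stood at 163 and 172 CPM with vehicle and at 60.4 and 77.7 CPM with gilteritinib, a log2 fold change of -1.29 (SE 0.11, adjusted p = 1.99e-12). CCNB1, cyclin B1, stood at 147 and 139 CPM with vehicle and 54.4 and 68.3 CPM with gilteritinib and fell by 1.23 (SE 0.12, adjusted p = 1.54e-11). Its partner CDK1 went from 154 and 148 CPM to 56.7 and 78.4 CPM, a fall of 1.17 on the log2 scale (SE 0.12, adjusted p = 1.08e-10). For all 3 genes the vehicle libraries were close to each other, and with gilteritinib the standard-diet library was the lower. AURKA, the spindle pole kinase, stood at 66.1 and 68.5 CPM with vehicle and at 24.9 and 26.3 CPM with gilteritinib (log2 fold change -1.40, SE 0.12, adjusted p = 3.52e-12). MELK, a kinase abundant in dividing cells, fell most of the 12, from 27.5 and 25.5 CPM to 8.37 and 8.92 CPM (-1.61, SE 0.16, adjusted p = 6.44e-11). PBK, a mitotic kinase, went from 38.6 and 33.9 CPM to 9.68 and 14.8 CPM (-1.58, SE 0.16, adjusted p = 2.54e-10). CDCA3, a factor that promotes loss of the CDK1 inhibitor WEE1, moved least of the 12, with 36.7 and 35.2 CPM under vehicle and 15.5 and 26.3 CPM under gilteritinib (-0.82, SE 0.15, adjusted p = 8.42e-05). The phosphatases CDC25C and CDC25B, which activate CDK1, fell by 1.39 and 0.88, cyclins CCNA2 and CCNB2 by 1.22 and 1.06, and NEK2, which separates centrosomes, by 1.28.

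The 4 genes of the chromosomal passenger complex, which corrects faulty attachments, fell by a median of 1.07 on the log2 scale. Its scaffold INCENP went from 35.3 and 36.1 CPM to 15.2 and 15.6 CPM (log2 fold change -1.21, SE 0.14, adjusted p = 3.24e-09). AURKB, its kinase, stood at 43.2 and 46.0 CPM with vehicle and 16.5 and 30.9 CPM with gilteritinib (-0.96, SE 0.15, adjusted p = 3.87e-06). Survivin, BIRC5, stood at 131 and 128 CPM with vehicle and 49.7 and 79.2 CPM with gilteritinib (-1.04, SE 0.13, adjusted p = 4.79e-08). In AURKB and BIRC5 the gilteritinib library from ketogenic feeding was well above the one from standard feeding, whereas INCENP was level between them. The borealin gene CDCA8 fell by 1.09.

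In the spindle assembly checkpoint the 5 genes divided by size of change. BUB1, the kinase that starts the checkpoint signal at kinetochores, went from 84.1 and 76.3 CPM to 26.9 and 32.8 CPM (-1.43, SE 0.12, adjusted p = 1.99e-12). Its relative BUB1B and the kinase TTK fell by 1.37 and 1.34. MAD2L1, the inhibitor that binds CDC20, stood at 87.3 and 87.4 CPM with vehicle and at 45 and 59.6 CPM with gilteritinib (-0.75, SE 0.12, adjusted p = 2.81e-06). BUB3, the adaptor that brings BUB1 to kinetochores, moved least of all 57 members: 422 and 371 CPM with vehicle against 318 and 303 CPM with gilteritinib (-0.35, SE 0.11, adjusted p = 0.0125). The groups of BUB3 did not overlap, but the gap between the nearest libraries was about the same as the gap between the vehicle libraries.

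Of the genes that trigger anaphase, CDC20, the activator of the anaphase-promoting complex, stood at 171 and 160 CPM with vehicle and at 65.2 and 88.4 CPM with gilteritinib (-1.12, SE 0.12, adjusted p = 3e-10). UBE2C, the conjugating enzyme of that complex, went from 127 and 130 CPM to 48.8 and 87.1 CPM (-0.97). PTTG1, securin, the inhibitor of the protease separase, stood at 70.5 and 68.7 CPM with vehicle, at 35.8 CPM with gilteritinib on the standard diet and at 65.8 CPM with gilteritinib on the ketogenic diet (-0.51, SE 0.15, adjusted p = 0.0222). The fall of PTTG1 thus came from the standard-diet pair of libraries, and under ketogenic feeding the drug and vehicle libraries were nearly level.

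The 7 centromere and kinetochore genes fell by a median of 1.13. CENPI, a subunit of the inner kinetochore, fell most, from 8.35 and 7.10 CPM to 3.07 and 1.88 CPM, which rests on 36 to 300 counts per library (-1.65, SE 0.26, adjusted p = 2.21e-06). CENPF, a large kinetochore protein that binds microtubules, moved least, from 63.5 and 71.0 CPM to 28.5 and 46.2 CPM (-0.88, SE 0.13, adjusted p = 4.61e-07). NDC80, NUF2 and SPC25, parts of the complex that holds microtubule ends, fell by 1.38, 1.16 and 1.09. The centromeric histone CENPA fell by 1.13 and CENPE by 1.04.

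Among the 8 genes of chromosome structure and cohesion, CDCA2, which brings phosphatase PP1 to chromatin, went from 35.3 and 29.5 CPM to 7.46 and 13.0 CPM, the largest fall of the 57 (-1.68, SE 0.17, adjusted p = 2.18e-09). TOP2A, the topoisomerase that untangles sister chromatids, went from 253 and 231 CPM to 87.5 and 78.5 CPM (-1.55, SE 0.11, adjusted p = 4.5e-15). MKI67, which coats mitotic chromosomes, stood at 72.3 and 102 CPM with vehicle and at 30.2 and 59.6 CPM with gilteritinib (-1.01, SE 0.12, adjusted p = 1.05e-08). MKI67 was higher under ketogenic feeding in each arm, so its lowest vehicle library and its highest gilteritinib library were close. SGO1, the protector of centromeric cohesin, moved least of the 8 (19.3 and 17.9 CPM to 7.78 and 11.1 CPM, -0.99, SE 0.17, adjusted p = 1.76e-05). The cohesin acetyltransferase ESCO2 and the cohesion factor CDCA5 fell by 1.26 and 1.07, and the condensin subunits NCAPH and NCAPG by 1.2 and 1.01.

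Of the 11 spindle assembly genes 10 were tested and fell by a median of 1.32. CKAP2L, a spindle-associated protein, went from 20.7 and 21.3 CPM to 6.93 and 6.62 CPM (-1.63, SE 0.17, adjusted p = 3e-10), with each pair of libraries nearly level. KIF18A, a kinesin that aligns chromosomes, fell least, from 13.0 and 10.2 CPM to 6.61 and 5.79 CPM (-0.90, SE 0.19, adjusted p = 0.000494). Between them lay ASPM, DLGAP5, SPAG5, HMMR and KIF2C at -1.39 to -1.30, and KIF15, the bipolar spindle motor KIF11 and the AURKA activator TPX2 at -1.21 to -1.19. Of the 9 cytokinesis genes 8 were tested, with a median of -1.35. KIF14, a kinesin of the midbody, went from 43.3 and 42.2 CPM to 13.0 and 14.9 CPM (-1.62, SE 0.14, adjusted p = 1.79e-12), and KIF20B, another cytokinesis kinesin, from 44.99 and 41.8 CPM to 21.9 and 22.6 CPM (-0.97, SE 0.13, adjusted p = 1.53e-07). The chromokinesin KIF4A fell by 1.5, and KIF23 and RACGAP1, which form centralspindlin, by 1.40 and 1.36. ANLN, anillin, fell by 1.34, KIF20A by 1.25 and the cytokinesis gene ECT2 by 1.21.

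Single libraries were left out of a fit of all 8 libraries with terms of their own for each label, where 56 of the 57 were called with none left out and PTTG1 was not. In those 7-library fits the arm that lost a library holds 1, and the spread comes from the other label. Without the standard-diet vehicle or the standard-diet gilteritinib library of marrow, 54 of the 57 calls remained and BUB3, CDCA3 and PTTG1 lost theirs. Without either ketogenic marrow library 56 remained and BUB3 lost its call, and with DESeq2 53 remained, without BUB3, NCAPG, PTTG1 and UBE2C. Sums of markers listed for other cell types moved with the drug too, though the cells that gave these reads were not identified. Macrophage markers (9 of 11 with counts, TIMD4 and C1QB at 0) stood at 38.9 and 31.5 CPM with vehicle and at 79.9 and 95.0 CPM with gilteritinib. Lymphoid markers (9 of 12 with counts, CD2, MS4A1 and KLRD1 at 0) stood at 71.9 and 86.5 against 117 and 136 CPM, and stromal and endothelial markers (7 of 12 with counts, COL3A1, DCN, CDH5, KDR and CXCL12 at 0) at 242 and 236 against 317 and 344 CPM. The leukaemia identity list, 12 of 12 with counts, summed to 1700 and 1670 CPM with vehicle and to 2140 and 2080 CPM with gilteritinib. Of the macrophage, lymphoid and stromal lists, only 4 genes each reached 10 counts in at least 2 marrow libraries. The part of these marker shifts in the result was not tested.

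**Figure D2:**
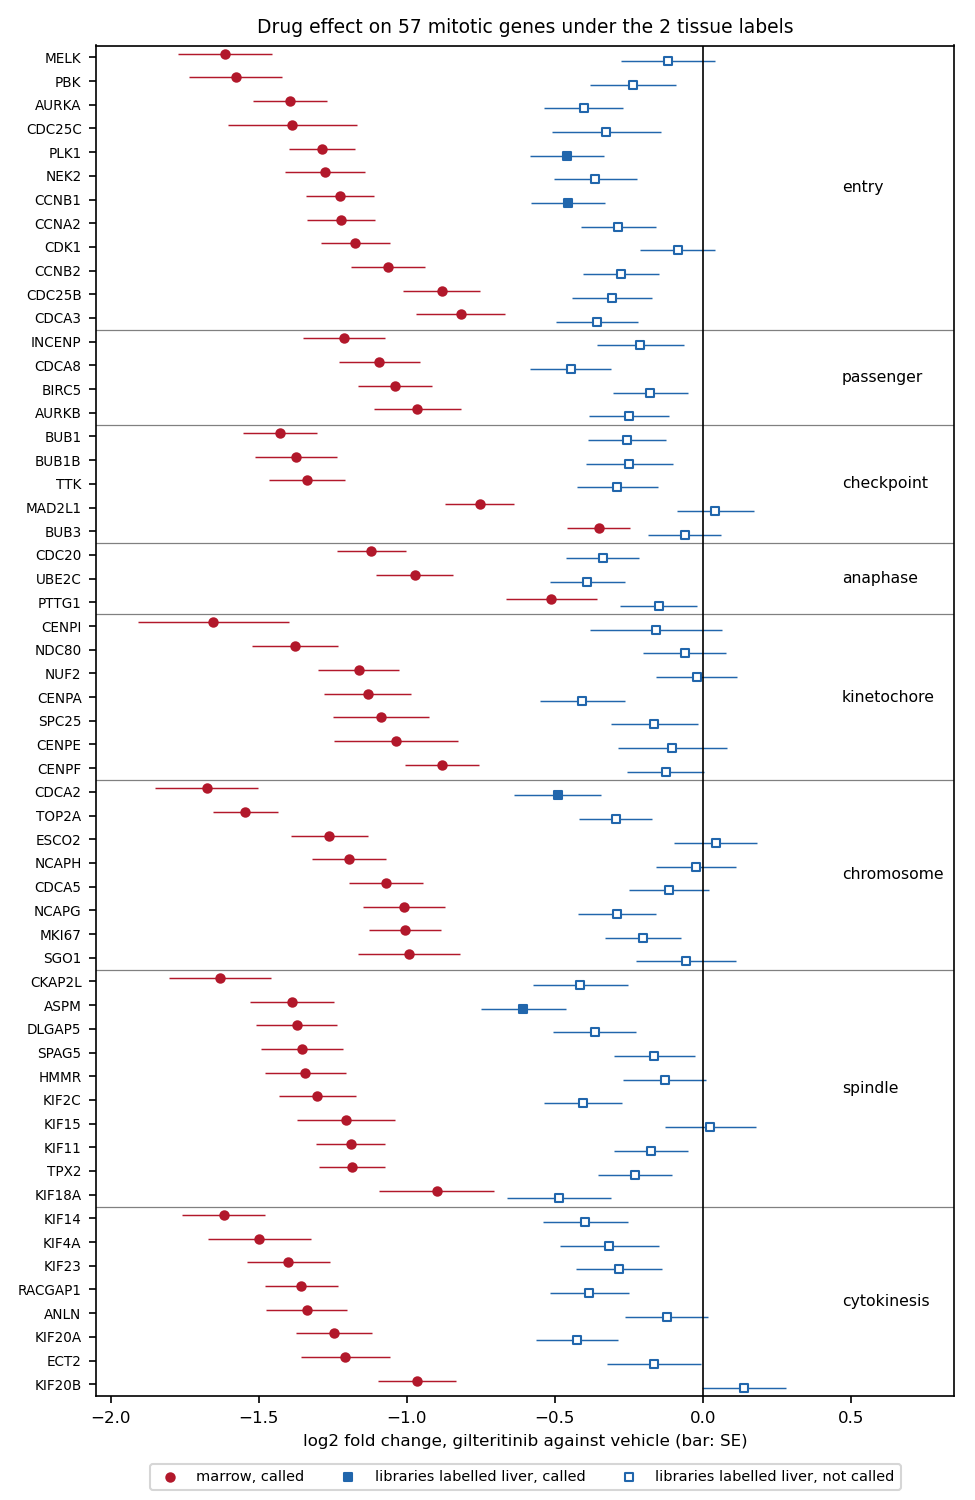
Log2 fold change of gilteritinib against vehicle with its SE for each tested member, by role, in marrow (red circles) and in the libraries labelled liver (blue squares, filled where called). All 57 marrow values lie below 0 and to the left of the liver values of the same gene, and 4 liver values are called.

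The rest of the mitotic machinery was examined with lists that hold none of these members and were also chosen with earlier results of these data known. In marrow 88 of 123 tested genes on those lists fell and none rose, at a median of -0.60. Kinetochore and centromere genes outside the 59 fell in 28 of 32 cases, led by KNL1 (-1.35), the scaffold of the outer kinetochore, CENPL (-1.30) and SKA1 (-1.27). Other spindle and cytokinesis genes fell in 21 of 24 cases, led by DEPDC1 (-1.42), GTSE1 (-1.34) and the centriole kinase PLK4 (-1.33). Condensin and cohesin genes fell in 13 of 16, with separase, ESPL1, at -1.36, NCAPG2 at -1.10 and SMC2 at -1.04.

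Subunits and regulators of the anaphase-promoting complex fell in 5 of 17 cases, among them its inhibitor FBXO5 (-0.82), the subunit CDC27 (-0.68) and the activator FZR1 (-0.60), at a list median of -0.22. The tubulins fell in 7 of 8 cases, with TUBB at -0.81, TUBA1B at -0.78 and TUBG1, which nucleates microtubules, at -0.60. Among 26 transcription regulators and entry inhibitors 14 fell, led by the repressors E2F7 (-1.42) and E2F8 (-1.19). FOXM1, the activator of late cell cycle genes, fell by 1.13 (SE 0.12, adjusted p = 5e-10) and MYBL2, which encodes B-MYB, by 0.93 (SE 0.11, adjusted p = 1.3e-08). WEE1, the kinase that restrains CDK1, fell by 0.66 (adjusted p = 0.00246). CDKN1A, the CDK inhibitor p21, stood at 0.24 and was not called (SE 0.11, adjusted p = 0.13). Of 44 genes of DNA replication and nucleotide supply, which act earlier in the cycle, 40 fell, with a median of -0.73 against -1.21 for the mitotic genes.

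**Figure D3:**
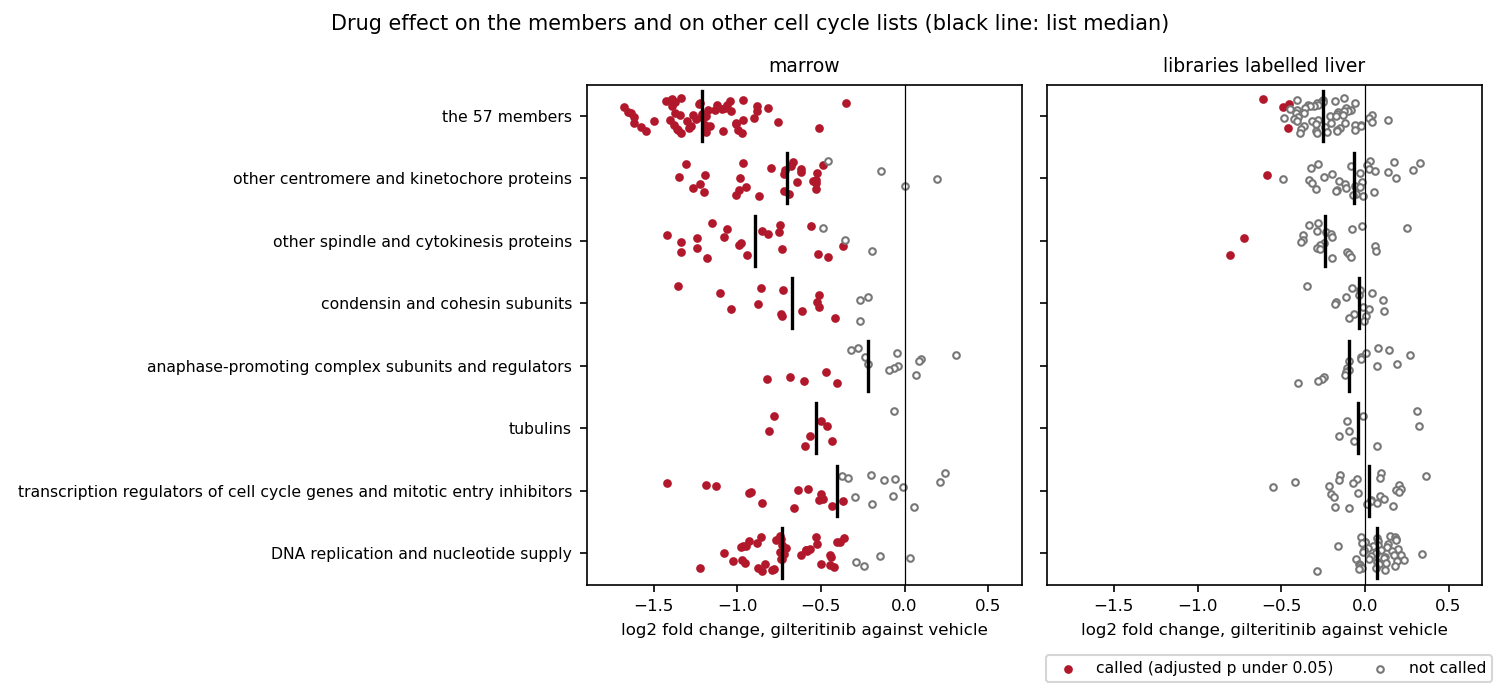
Log2 fold change of gilteritinib against vehicle for each gene of the mitotic members and of 7 other cell cycle lists, in marrow and in the libraries labelled liver, with the list median as a black line. Called genes are red. In marrow the median of the 57 members (-1.21) is the lowest of the 8 lists and that of the anaphase-promoting complex (-0.22) the highest.

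In the libraries labelled liver the same drug comparison gave much smaller values. Of 57 members 4 fell and none rose, where 0.844% of all 14092 genes tested were called lower, and the median log2 fold change of the members was -0.25, with 53 below 0. Both gilteritinib libraries lay below both vehicle libraries in 38 of 57 members, against 18.1% of all genes. ASPM, the spindle pole protein behind a form of microcephaly, stood at 41.6 and 44.0 CPM with vehicle and 25.7 and 30.6 CPM with gilteritinib (-0.61, SE 0.14, adjusted p = 0.0025). PLK1 stood at 174 and 181 CPM with vehicle and 125 and 133 CPM with gilteritinib (-0.46, SE 0.13, adjusted p = 0.0172). CCNB1 stood at 147 and 162 CPM against 105 and 121 CPM (-0.46, SE 0.13, adjusted p = 0.0193). CDCA2 stood at 35.8 and 37.0 CPM against 23.6 and 28.4 CPM (-0.49, SE 0.15, adjusted p = 0.0401). In these 4 genes the drug and vehicle libraries were well apart, with the ketogenic library slightly the higher of each pair.

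Other members named here were not called. CDCA8 stood at -0.45 (SE 0.14, adjusted p = 0.0501), KIF18A at -0.49 (SE 0.18, adjusted p = 0.148), KIF20A at -0.43 (SE 0.14) and CENPA at -0.41 (SE 0.14). AURKA was at -0.40 (SE 0.13), UBE2C at -0.39 (SE 0.13) and CDC20 at -0.34 (SE 0.12). UBE2C was low in 1 library: it stood at 164 and 158 CPM with vehicle, at 95.3 CPM with gilteritinib on the standard diet and at 157 CPM with gilteritinib on the ketogenic diet. TOP2A and TTK were both at -0.29, BUB1 at -0.26, AURKB at -0.25 and MKI67 at -0.20. BIRC5 was at -0.18, PTTG1 at -0.15, ANLN at -0.12 and CDK1 at -0.09 (SE 0.13). Nearest to no difference were NCAPH and NUF2, both at -0.02, KIF15 at 0.03 and MAD2L1 at 0.04 (SE 0.13). The kinetochore genes had the smallest role median (-0.13) and the entry genes the most negative but 1 (-0.32), after the triggers of anaphase (-0.34).

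Of the other mitotic lists 3 of 123 genes fell in the libraries labelled liver: PSRC1 (-0.81, SE 0.20, adjusted p = 0.00685) and FAM83D (-0.72, SE 0.20, adjusted p = 0.0233), which act on the spindle, and HJURP (-0.59, SE 0.15, adjusted p = 0.00594), the chaperone of CENPA. FOXM1 was at -0.21, MYBL2 at -0.04, WEE1 at -0.10 and CDKN1A at 0.10, and none was called. None of the 44 replication genes was called and their median was 0.07. DESeq2 made none of the 4 calls, and the 8-library fit with terms for each label made 2 of them (ASPM and PLK1). Without any 1 library of the liver label that fit, its spread then taken from marrow, made none. Depth moved with the drug here, and with counts thinned to the smallest library the same 4 genes and KIF2C were called, an alternative chosen after seeing the data. Macrophage markers summed to 44.5 and 29.6 CPM with vehicle and 66.6 and 47.4 CPM with gilteritinib under this label, and lymphoid markers to 90.7 and 91.6 against 78.2 and 90.6 CPM. Stromal and endothelial markers summed to 221 and 224 against 265 and 258 CPM, and the leukaemia identity list to 1600 and 1610 against 1850 and 1630 CPM. Of the macrophage, lymphoid and stromal lists, only 4 genes each reached 10 counts in at least 2 libraries of this label. The part of these markers in the result was not tested.

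**Figure D4:**
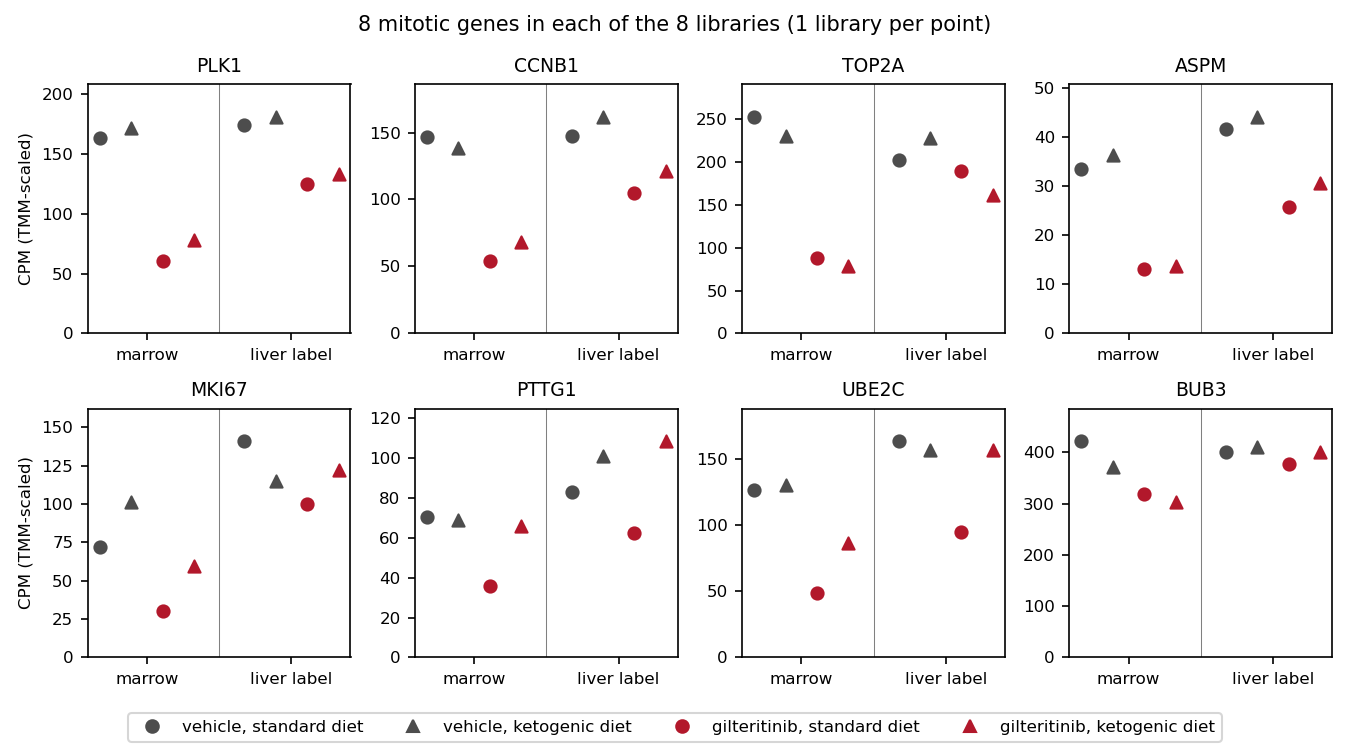
CPM of 8 members in each library, marrow on the left and the libraries labelled liver on the right of each panel (grey vehicle, red gilteritinib, circles standard diet, triangles ketogenic diet). Drug and vehicle points are widely apart in marrow for PLK1, CCNB1, TOP2A and ASPM, while the ketogenic gilteritinib point of PTTG1 (65.8 CPM) sits beside the vehicle points.

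The difference between the drug effects under the 2 labels was tested in a fit of all 8 libraries. All 57 members had a higher log2 fold change, meaning a smaller fall or none, in the libraries labelled liver, by a median of 0.97. Of them 46 were called higher, against 1.62% of all 14749 genes. MELK and CENPI differed most, both by 1.49 (SE 0.22, adjusted p = 0.00178, and SE 0.33, adjusted p = 0.0131). MELK stood at 20.1 and 23.5 CPM with vehicle and at 22.5 and 18.0 CPM with gilteritinib under the liver label, where its groups overlapped. PBK differed by 1.34, NDC80 by 1.32, ESCO2 by 1.30 and TOP2A by 1.25, each with an adjusted p from 0.000362 to 0.00248. TOP2A under the liver label stood at 203 and 228 CPM with vehicle and 190 and 162 CPM with gilteritinib. KIF15 differed by 1.23, KIF14 and CKAP2L by 1.22 and ANLN by 1.21. FOXM1 (0.91, SE 0.18) and MYBL2 (0.89, SE 0.16) differed as well, and so did 38 of the 123 genes on the other mitotic lists and 30 of the 44 replication genes.

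Of the 11 members not called, BUB3, PTTG1, KIF18A, CDCA3 and UBE2C had the smallest differences (0.29 to 0.58). The number of calls moved with the libraries in the fit, for the members and for all genes alike. With a library left out, the spread comes from the label that keeps its 4 libraries. The members' median difference then ran from 0.81 to 1.16, and was 1.00 without the liver-label vehicle library on standard diet.

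Set against each other without a test, the libraries labelled liver and those from marrow had medians close to each other under vehicle and apart under gilteritinib. With vehicle and standard diet the liver-to-marrow log2 ratio had a median of -0.02 and 27 of 57 members were above 0, where 50.6% of all genes were. With vehicle and ketogenic diet the median was 0.11, with 43 of 57 above 0 (50.4% of all genes). With gilteritinib every member was higher under the liver label, by a median log2 ratio of 1.09 on the standard diet (50.4% of all genes) and 0.88 on the ketogenic diet (49.1% of all genes). MKI67 had the largest ratio on the standard diet (1.73), from 30.2 CPM in marrow to 100 CPM, and was higher under the liver label with vehicle as well (72.3 against 141 CPM). BUB3 had the smallest ratio under gilteritinib on both diets (0.25 and 0.40). In the test of the label over all 8 libraries no member was called with edgeR, and 39 of 57 had an unadjusted p under 0.05, against 13.7% of all genes. DESeq2 called 19 members higher, and 100 of all 14749 genes. With edgeR 8 were called without the standard-diet vehicle library of marrow, and 33 of all 14422 genes were called higher. Without the ketogenic vehicle library labelled liver 1 was called, MKI67, and 2 of all 14719 genes were called higher. The median log2 difference of the 57 members was 0.49. It averages over vehicle and gilteritinib libraries, whose ratios differed as given above.

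The diet comparison asked how ketogenic feeding moved the same transcripts. In marrow 1 of 57 members was called, MKI67, which was higher with the ketogenic diet by 0.70 on the log2 scale (SE 0.12, adjusted p = 0.000523), where 0.342% of all genes were called higher. The 4 MKI67 levels given above show the ketogenic library above the standard one with vehicle and with gilteritinib, by log2 ratios of 0.49 and 0.98. No member had both ketogenic libraries above both standard-diet libraries, against 12.5% of all genes. This count cannot speak of the diet, because each diet holds 1 gilteritinib library and the drug lowered all 57 members. The median log2 fold change of the 57 was 0.11, with 42 above 0.

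After MKI67 the largest values in marrow were those of AURKB (0.44, SE 0.14, adjusted p = 0.229), UBE2C (0.40, SE 0.13), CENPF (0.39, SE 0.12, adjusted p = 0.18), SPC25 (0.38, SE 0.16) and PTTG1 (0.38, SE 0.15). None of the 5 was called. CDCA3 and BIRC5 were both at 0.29, PLK1 at 0.20, CDK1 and MAD2L1 at 0.18, CDC20 at 0.15, NDC80 at 0.14, CCNB1 at 0.10, AURKA at 0.05 and BUB1 at 0.04. On the other side KIF18A was at -0.30, ECT2 at -0.19, TOP2A at -0.16 and MELK at -0.05. Nearest to 0 were INCENP (0.02), ANLN (0.01), KIF4A (0.01), CKAP2L (-0.01) and ESCO2, whose libraries gave no difference at 2 decimals. None of FOXM1 (0.33), MYBL2 (0.41), WEE1 (0.16) and CDKN1A (-0.14) was called, nor was any of the 123 genes on the other mitotic lists. In the 8-library fit with terms for each label MKI67 was not called. With the spread of that fit taken from the liver label alone, none was called without either gilteritinib marrow library, and 5 were called (MKI67, AURKB, PTTG1, SPC25 and UBE2C) without either vehicle marrow library.

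In the libraries labelled liver 1 of 57 members was called for the diet, PTTG1, where 0.362% of all genes were called higher. It stood at 82.8 CPM on the standard and 101 CPM on the ketogenic diet with vehicle, and at 62.4 and 109 CPM with gilteritinib (0.54, SE 0.13, adjusted p = 0.0077). Both ketogenic libraries were above both standard ones for PTTG1, as for 10 of 57 members, against 17.9% of all genes. Each diet holds 1 gilteritinib library here too, so this count mixes drug and diet. AURKB (0.38, SE 0.14, adjusted p = 0.199), UBE2C (0.33, SE 0.13), MAD2L1 (0.33, SE 0.13), SPC25 (0.32, SE 0.15) and NUF2 (0.30, SE 0.14) followed and were not called. BIRC5 was at 0.26, CDCA3 at 0.22, ECT2 at 0.21, SGO1 at 0.20, CDK1 at 0.19, CCNB1 and ASPM at 0.17, CDC20 at 0.16, PLK1 at 0.07, INCENP at 0.06 and AURKA at 0.05. CDC25B (0.03), TPX2 (0.01), MKI67 (-0.01), CENPF (-0.01), KIF20B (-0.03), BUB1 (-0.03) and TOP2A (-0.04) lay nearest to 0, with KIF18A level at 2 decimals. The members' median was 0.12. FOXM1 was at 0.17, MYBL2 at 0.21, WEE1 at 0.26 and CDKN1A at -0.25, and none was called. DESeq2 did not call PTTG1, nor did the 8-library fit with terms for each label, either with all 8 libraries or without any 1 of the liver-label libraries.

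No member differed in its diet effect between the labels with edgeR or DESeq2. At an unadjusted p under 0.05 there were 2 members, MKI67 (liver minus marrow -0.72, SE 0.20, adjusted p = 0.724) and CENPF (-0.41, SE 0.18, adjusted p = 0.981), against 4.83% of all genes. MKI67 was called in this test without either vehicle marrow library, with the spread then taken from the liver label.

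Whether the drug acted differently under the 2 diets was first described by ratios of single libraries, without a test. In marrow every member was lower with gilteritinib on each diet, with a median log2 ratio of -1.43 on the standard and -1.02 on the ketogenic diet. The ratio was higher on the ketogenic diet in 51 of 57 members, against 51.3% of all genes. PTTG1 went from -0.98 on the standard to -0.06 on the ketogenic diet, and CDCA2 from -2.24 to -1.19. UBE2C went from -1.38 to -0.58 and AURKB from -1.39 to -0.57. CENPI went the other way, from -1.44 to -1.92, and TOP2A was nearly level at -1.53 and -1.56.

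Read by diet, the same 4 marrow libraries gave a median ketogenic-to-standard log2 ratio of -0.08 with vehicle, with 39 of 57 members below 0 (49.3% of all genes), and of 0.33 with gilteritinib, with 49 of 57 above 0 (51.9% of all genes). In the libraries labelled liver the drug ratios had medians of -0.27 on the standard and -0.22 on the ketogenic diet, and 36 of 57 members were higher on the ketogenic diet (50.2% of all genes). Gilteritinib with ketogenic diet against vehicle with standard diet gave a median of -1.10 in marrow, with all 57 lower, and of -0.14 under the liver label, with 44 lower.

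**Figure D5:**
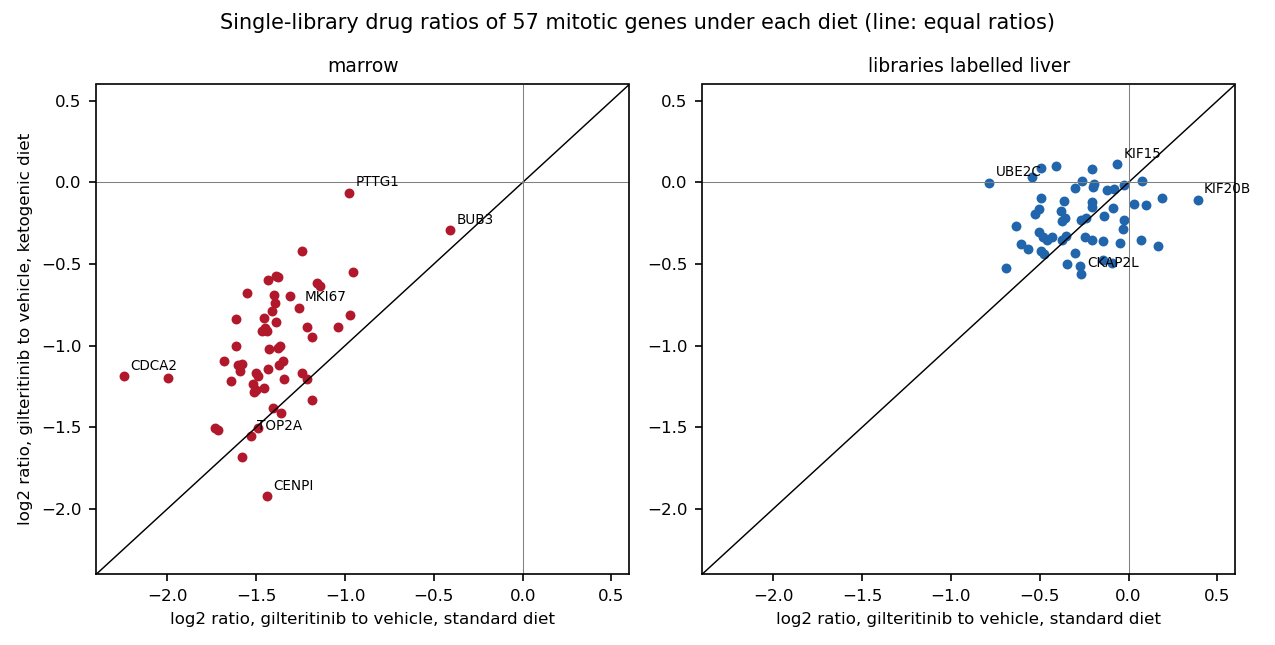
Log2 ratio of gilteritinib to vehicle on the standard diet (horizontal) and on the ketogenic diet (vertical) for each tested member, in marrow and in the libraries labelled liver, with a line of equal ratios. In marrow 51 of 57 points lie above the line and PTTG1 is the nearest to 0 on the vertical axis.

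The interaction of drug and diet, fitted over all 8 libraries and assumed equal under both labels, called no member with edgeR or DESeq2. Its median over the 57 was 0.20 on the log2 scale, and 4 members had an unadjusted p under 0.05, against 4.79% of all genes: UBE2C (0.78, SE 0.23), PTTG1 (0.72, SE 0.20), AURKB (0.67, SE 0.27) and CDCA3 (0.55, SE 0.23), each with an adjusted p of 0.923. With DESeq2 there were 5 such members. The fit held no term for the difference in drug effect between the labels, described above, so that difference counted as spread. The absence of calls therefore cannot show that the drug acted alike on both diets. The median went from -0.20 without the standard-diet vehicle library of marrow to 0.66 without the standard-diet gilteritinib library labelled liver, so its sign rested on single libraries.

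A fit with 1 drug term for both labels averages drug effects that differed between them, as tested above, and counts that difference as spread. In it 21 of 57 members fell, against 1.92% of all genes called lower, with a median of -0.70. The largest were CDCA2 (-1.03), KIF14 and ASPM (both -0.97), CKAP2L (-0.95), AURKA (-0.88), PLK1 and KIF4A (both -0.86), RACGAP1 and DLGAP5 (both -0.85) and KIF2C (-0.84), with adjusted p-values from 0.00224 for ASPM to 0.0497 for KIF4A. The count was 37 with DESeq2 and with limma-voom, where 429 and 302 of all 14749 genes were called lower. It moved with single libraries, as did the count over all genes, given in brackets. In marrow it was 13 (84 of 14422) without the standard-diet vehicle and 5 (92 of 14707) without the ketogenic vehicle library. It was 10 (88 of 14730) without the standard-diet gilteritinib and 2 (100 of 14637) without the ketogenic gilteritinib library. Under the liver label it was 36 (422 of 14532) without the standard-diet and 33 (203 of 14525) without the ketogenic gilteritinib library. With 1 diet term for both labels no member was called with edgeR or DESeq2, where 0.136% of all genes were called in either direction. PTTG1 (0.47, SE 0.15, adjusted p = 0.422) and AURKB (0.41, SE 0.18, adjusted p = 0.537) were the 2 members with an unadjusted p under 0.05.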

How the data were processed

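The deposited table holds whole-number counts of reads per gene for 60676 genes in 8 libraries, with no normalization by the authors. Per the labels' protocols, RNA was extracted with AllPrep, made into mRNA libraries with a Roche hyper prep kit and sequenced as read pairs on a NovaSeq. Reads were aligned to GRCh38 with STAR 2.7.3a, per the submitters' processing notes. Of the counting, neither the program nor its annotation, strand setting or treatment of mouse reads is stated (not given in the sources used here). Positions and gene overlaps came from GENCODE 29.

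Genes with at least 10 counts in at least 2 of the libraries in a fit were kept, scaled with TMM and tested with edgeR 4.0.16 (R 4.3.3) by robust quasi-likelihood fits, with p-values adjusted over all genes tested (Benjamini-Hochberg, threshold 0.05). SE is the size of the log2 fold change divided by the square root of F. CPM (deposited counts scaled to a common library size) used TMM-scaled totals. Within a label, drug and diet were fitted together, which leaves 1 residual degree of freedom. Separate terms for the labels leave 2, the interaction 3, and common terms 4. Each of the 8 groups has 1 library, so the spread between libraries is what the additive terms leave over. The fits also moderate each gene's spread towards a trend over all genes tested. In the marrow fits this shared part had a median of 47.4 prior degrees of freedom against the 1 residual. Under the liver label its value was not finite. Within a label the p-values thus rest mostly on spread pooled over genes. Totals of 13605936 to 33611830 counts set the counting precision, and intervals on counts would cover counting error only.

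Each result was also computed with limma-voom (limma 3.58.1), DESeq2 1.42.0, library totals, DESeq2's size factors, no or a stricter count filter (30), dropping the other factor, separate terms per label over the 8 libraries, and leaving out each library (for comparisons within a label, from that 8-library fit, which assumes that a lone library varies like those of the other label). After seeing the data, an older quasi-likelihood fit and a thinning of every library to the smallest one were added. The fits were also run on simulated counts with the same dispersion (spread beyond counting error) for every gene. Those runs do not show how the fits do where the spread differs between genes. The members, role lists and pathway lists were chosen with earlier results of these data known. In each drug or diet comparison 10 members were always named, with the 6 largest and 4 smallest changes, the largest and smallest of each role list, up to 3 called genes of each other list, and FOXM1, MYBL2, CDKN1A and WEE1. In the other tests up to 10 called members were named.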

Additional observations from a re-analysis of the deposited data

Results flagged for a closer look

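The test of the difference between the drug effects under the 2 labels called 46 members, which is what singled them out. The 10 with the largest difference, in log2 fold change of the libraries labelled liver minus marrow, were MELK (1.49), CENPI (1.49), PBK (1.34), NDC80 (1.32), ESCO2 (1.30), TOP2A (1.25), KIF15 (1.23), KIF14 (1.22), CKAP2L (1.22) and ANLN (1.21). Tissue label and library code coincide, so the difference cannot be told apart from one between the codes.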

How the results depend on the processing

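No analysis paired by animal was run, because each group has 1 library and the labels do not say how many animals stand behind it. Within a label, drug and diet were fitted together, so drug and vehicle libraries were matched by diet. All 57 drug calls in marrow kept their direction under every alternative run, and 53 to 57 kept their call. The 4 drug calls in the libraries labelled liver became 0 with no count filter, with DESeq2 and without the other factor, and 2 with separate terms per label over all 8 libraries. The 1 diet call in marrow became 0 with no count filter, without the other factor and in the fit of all 8 libraries. The 1 diet call in the libraries labelled liver became 0 under those 3 settings and with DESeq2. The 21 drug calls over all 8 libraries became 10 with no count filter and 37 with DESeq2 and with limma-voom, and the label test went from 0 to 19 calls with DESeq2. With 1 library left out, counts ran from 0 to 4 for the drug and from 0 to 1 for the diet in the libraries labelled liver, from 0 to 5 for the diet in marrow, from 2 to 51 for the difference in drug effect, from 0 to 1 for the difference in diet effect, from 2 to 36 for the drug over all 8 and from 0 to 8 for the label. For the comparisons within a label these are 7-library fits with terms for each label, so both the fit and the libraries differ from the values reported, and the label that lost a library adds nothing to the spread. Under the liver label the drug and diet counts were 0 without any of its own libraries and 4 and 1 without a marrow library. The cause was not tested. The members' median difference in drug effect ran from 0.81 to 1.16 with 1 library left out, while the calls over all genes moved too. Of 2737 gene values recomputed, 98 reversed in sign, 72 of them when a library was left out, and no drug value in marrow was among them. For the drug effect in the libraries labelled liver, the values that changed sign under another setting were KIF15 at -0.013 with library totals. For the diet effect in marrow, the values that changed sign under another setting were ANLN at -0.0304 with library totals, -0.0089 with limma-voom and -0.051 without the other factor, BUB1 at -0.0088 with library totals, -0.0162 with thinned counts and -0.0516 without the other factor and CKAP2L at 0.0013 in the fit of all 8 libraries. Others were ESCO2 at 0.0061 with DESeq2 size factors, 0.0056 with the filter at 30 counts, 0.0006 with DESeq2, 0.0096 with limma-voom, 0.0197 with thinned counts, 0.0048 without the other factor and 0.0134 in the fit of all 8 libraries, INCENP at -0.0223 with library totals and -0.0017 without the other factor and KIF4A at -0.0297 with library totals and -0.0351 without the other factor. For the diet effect in the libraries labelled liver, the values that changed sign under another setting were CDC25B at -0.0003 with library totals, CENPF at 0.0198 with thinned counts and KIF18A at -0.0286 with library totals and -0.0332 with thinned counts. Others were KIF20B at 0.0007 with thinned counts, MKI67 at 0.0017 with limma-voom and TPX2 at -0.0156 with library totals. With 1 library left out, the drug effect in the libraries labelled liver spanned 0 at -0.54 to 0.0352 (AURKB), -0.063 to 0.11 (KIF15), -0.49 to 0.089 (MKI67), -0.14 to 0.0963 (NCAPH) and -0.41 to 0.10 (PTTG1). It also spanned 0 at -0.12 to 0.31 (CDKN1A), -0.12 to 0.042 (MYBL2) and -0.39 to 0.18 (WEE1). With 1 library left out, the diet effect in marrow spanned 0 at -0.10 to 0.19 (ANLN), -0.0365 to 0.65 (BIRC5), -0.14 to 0.27 (BUB1), -0.0812 to 0.31 (CCNB1) and -0.094 to 0.42 (CDC20). It also spanned 0 at -0.0601 to 0.75 (CDCA3), -0.0571 to 0.45 (CDK1), -0.0844 to 0.0384 (CKAP2L), -0.0896 to 0.0794 (ESCO2) and -0.0042 to 0.029 (KIF4A). It also spanned 0 at -0.11 to 0.0731 (MELK), -0.0926 to 0.48 (NDC80), -0.0374 to 0.86 (PTTG1) and -0.0951 to 0.51 (WEE1). With 1 library left out, the diet effect in the libraries labelled liver spanned 0 at -0.0501 to 0.15 (AURKA), -0.13 to 0.0797 (BUB1), -0.0434 to 0.10 (CDC25B), -0.15 to 0.13 (CENPF) and -0.0952 to 0.22 (INCENP). It also spanned 0 at -0.0809 to 0.0822 (KIF18A), -0.26 to 0.23 (KIF20B), -0.30 to 0.28 (MKI67), -0.23 to 0.17 (TOP2A) and -0.0614 to 0.72 (UBE2C). It also spanned 0 at -0.0348 to 0.54 (WEE1). Scaling by library totals moved the median of all genes in the marrow drug comparison to -0.15, with all 57 members still called lower. With 1 library a group, depth limits the genes with few counts, such as CENPI (36 counts in its lowest library).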
